A study of Mus musculus with 2 samples.

Results

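B lineage cells of injured mouse spinal cord were described here, precursors included. The members were chosen by the measured UMIs of marker genes: they were the barcodes with at least 4 UMIs of Cd79a and Cd79b together, at most 5 UMIs of C1qa and C1qb together and no UMI of Cd3e, Cd3d, Cd3g or Trac. A UMI, or unique molecular identifier, counts 1 captured RNA molecule. Barcodes were kept at 500 or more genes, 1000 or more UMIs and at most 15% mitochondrial UMIs. The rule found 17 of 2975 kept HDAC3i cells and 33 of 2170 kept Vehicle cells, which makes 50 of 5145 cells in all.

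The series compared spinal cord cells from mice given HDAC3i, an inhibitor of histone deacetylase 3, with cells from mice given Vehicle, in both cases at 5 dpi (days post injury). The cells went through droplet capture with 3' single-cell RNA libraries, and each group had 1 library. Neither the compound nor the strain, age, sex or number of animals is in the labels, and the 2 titles have 1 date in common. With 1 library a group there was no test of treatment, and the values compare 2 libraries. All intervals are 95% intervals that cover counting error only, and treatment, animal and library cannot be told apart.

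B cells arise in bone marrow, where a progenitor rearranges its heavy chain gene with the Rag recombinases and Dntt, which adds bases at the joins. Heavy chain of a pre-B cell first pairs with a surrogate light chain made of Vpreb and Igll1 proteins, and Il7r carries a growth signal in mouse. A kappa or lambda light chain gene is rearranged afterwards, and maturing B cells gain MHC class II, CD20 (Ms4a1) and IgD. Cd79a and Cd79b encode the signalling chains of the B cell receptor throughout.

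Depth was close in the libraries, with 38957752 HDAC3i and 29726813 Vehicle UMIs and medians of 9775 and 10252.5 UMIs per kept cell. The B lineage cells were shallower, at medians of 3818 (range 1113 to 35351) HDAC3i and 3739 (range 1401 to 76725) Vehicle UMIs. The libraries shared 10 barcode sequences, of which 4 were kept in both and 0 belonged to B lineage cells. All 18 genes of a B lineage marker list, of which the rule used Cd79a and Cd79b, were detected in both libraries, and their summed level ran between 22 and 177 UMIs per HDAC3i cell and 23 and 119 UMIs per Vehicle cell. Ms4a1, which the rule did not use, was seen in 13 of 17 (76.5%) HDAC3i and 15 of 33 (45.5%) Vehicle B lineage cells. In C1q-rich cells, which are microglia and macrophages with a median of 15244 HDAC3i and 15585 Vehicle UMIs, Ms4a1 was seen in 1 of 1005 and in 0 of 747 cells, the 0 allowing up to 3 cells.

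The precursor state was set by at least 2 UMIs of Vpreb1 and Vpreb3 together, and the mature state by at least 5 UMIs of the class II genes H2-Aa, H2-Ab1 and H2-Eb1 together. A cell that met only the first was called precursor, only the second mature, both mixed, and neither unassigned. Vpreb1 and Igll1 are neighbouring genes on the minus strand, at chr16:16868403-16870843 and chr16:16860671-16863985 of mm10, Vpreb3 lies at chr10:75943057-75949657 and H2-Aa at chr17:34282744-34287823. The 250 bases before their RefSeq starts, which for Vpreb1 and Vpreb3 lie inside the GENCODE gene spans just given, are shown because these genes carry the split and, within it, separate the cells. Capitals mark the E-box letters CANNTG, which E2A (Tcf3) and related factors recognise, in the first 3 promoters. In H2-Aa they mark the letters ATTGG, which are the CCAAT box of class II promoters read on the other strand. The sequences are RefSeq promoters of GRCm38.p6, read 5' to 3' on each gene's own strand.
Vpreb1: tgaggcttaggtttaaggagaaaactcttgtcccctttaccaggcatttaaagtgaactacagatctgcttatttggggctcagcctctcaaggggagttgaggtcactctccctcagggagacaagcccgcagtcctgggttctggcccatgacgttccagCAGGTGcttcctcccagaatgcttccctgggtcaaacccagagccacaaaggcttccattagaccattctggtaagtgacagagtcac
Igll1: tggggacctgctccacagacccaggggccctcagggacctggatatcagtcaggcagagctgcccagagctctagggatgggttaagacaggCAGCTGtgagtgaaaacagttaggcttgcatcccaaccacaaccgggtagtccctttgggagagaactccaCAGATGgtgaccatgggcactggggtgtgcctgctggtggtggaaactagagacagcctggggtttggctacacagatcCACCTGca
Vpreb3: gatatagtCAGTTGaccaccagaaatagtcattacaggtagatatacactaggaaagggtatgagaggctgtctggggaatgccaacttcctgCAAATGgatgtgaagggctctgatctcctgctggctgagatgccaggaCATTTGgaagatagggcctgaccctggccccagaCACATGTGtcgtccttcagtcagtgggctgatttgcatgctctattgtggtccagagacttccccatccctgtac
H2-Aa: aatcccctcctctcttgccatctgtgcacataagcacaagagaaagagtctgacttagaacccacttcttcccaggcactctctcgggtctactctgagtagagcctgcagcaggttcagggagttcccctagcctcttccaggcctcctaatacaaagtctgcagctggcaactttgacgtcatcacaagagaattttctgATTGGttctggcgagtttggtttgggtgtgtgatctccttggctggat

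They occupy chr16:16869256-16869505 (minus strand), chr16:16863986-16864235 (minus), chr10:75948050-75948299 (plus) and chr17:34287824-34288073 (minus). Vpreb1 held 1 E-box, Igll1 held 3 and Vpreb3 held 5, of which 2 overlap. The letters CANNTG, the same on both strands, stood in 66.2% of 32526 RefSeq promoter windows of this length, so their presence alone sets no promoter apart. CCCNNGGG, the palindromic letters of the EBF factors, stood in 11.9% of the windows and, among these 4, in Igll1, at position -231 from the start. CCAAT on either strand stood in 33.8% of the windows, and in H2-Aa it stood at position -48. A match is a description of letters and not a bound site.

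Precursors were few in the HDAC3i library and the larger group in the Vehicle library. The HDAC3i library held 3 precursor, 11 mature and 3 mixed cells, and the Vehicle library held 20 precursor, 10 mature, 2 mixed and 1 unassigned cell. Precursors were 17.6% (95% interval 3.80 to 43.4) of HDAC3i and 60.6% (42.1 to 77.1) of Vehicle B lineage cells. Mature cells were 64.7% (38.3 to 85.8) of HDAC3i and 30.3% (15.6 to 48.7) of Vehicle B lineage cells.

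**Figure D1:**
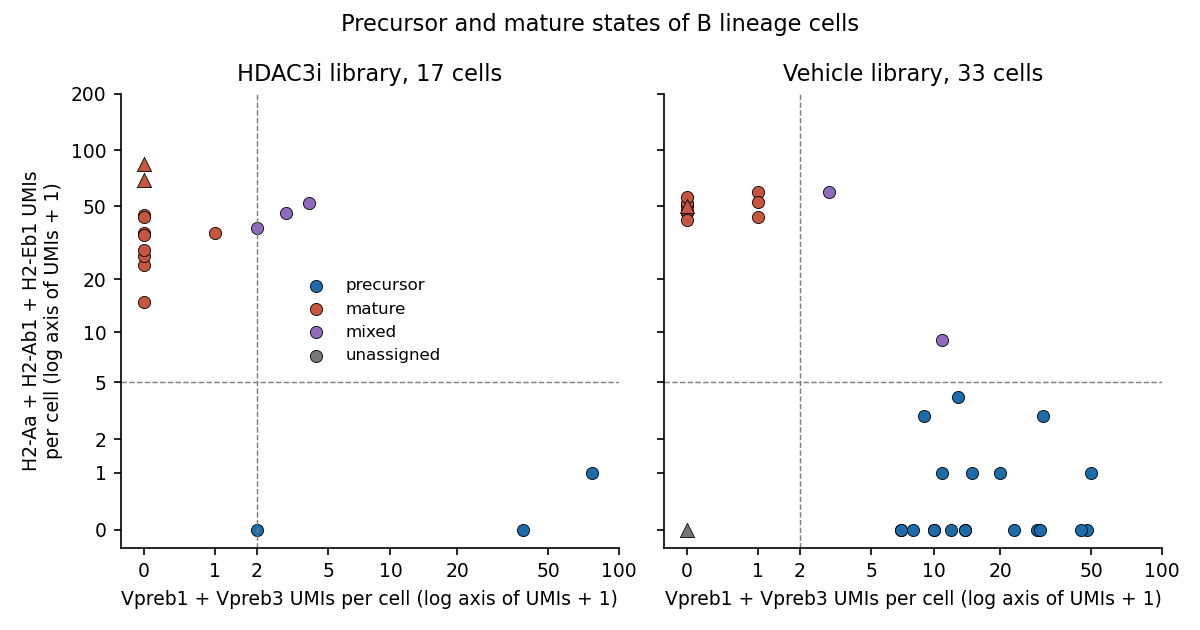
Each point is 1 B lineage cell, with Vpreb1 and Vpreb3 UMIs on the x axis and H2-Aa, H2-Ab1 and H2-Eb1 UMIs on the y axis (log axes of UMIs + 1), HDAC3i left and Vehicle right. Dashed lines are the thresholds of 2 and 5 UMIs, and triangles are the 4 cells set apart for transcripts of another cell type. At the lower right lie 20 Vehicle cells against 3 HDAC3i cells.

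Against all kept cells, B lineage cells were 0.571% (0.333 to 0.913) in HDAC3i and 1.52% (1.05 to 2.13) in Vehicle, a ratio of 0.376 (0.196 to 0.694). Precursors were 0.101% (0.0208 to 0.294) of kept HDAC3i and 0.922% (0.564 to 1.42) of kept Vehicle cells, a ratio of 0.109 (0.0208 to 0.369). Mature cells were 0.370% (0.185 to 0.661) of kept HDAC3i and 0.461% (0.221 to 0.846) of kept Vehicle cells, a ratio of 0.802 (0.309 to 2.11). The interval of the ratio lay under 1 for precursors and held 1 for mature cells, and the difference between the ratios was not tested. T cells, counted by at least 2 UMIs of the same T cell genes and 0 of Cd79a and Cd79b, ran the other way. There were 48 (1.61%) in HDAC3i and 16 (0.737%) in Vehicle, and no NK cell gene was used.

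**Figure D2:**
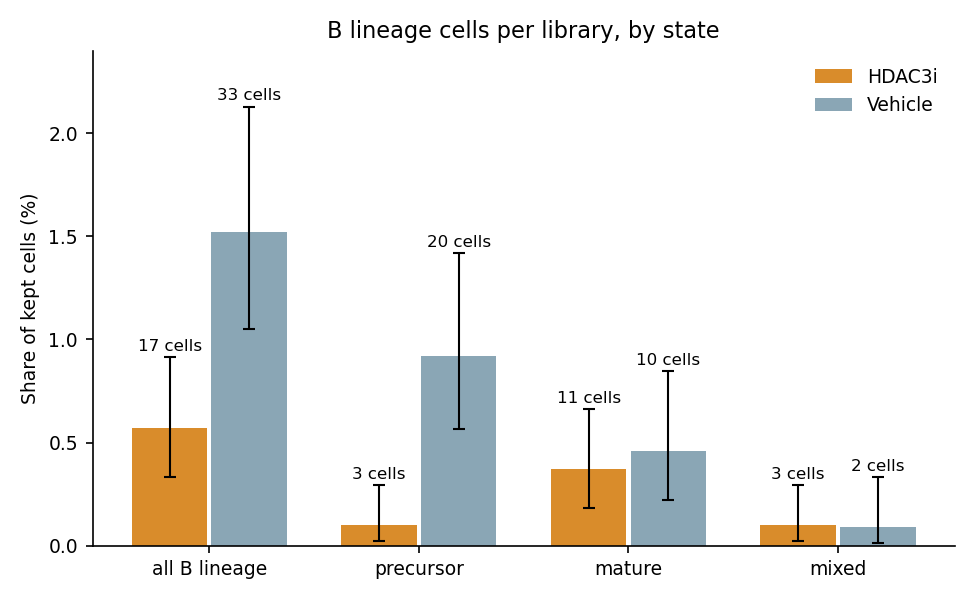
Bars give B lineage cells, in all and by state, as a percentage of kept cells, HDAC3i left of Vehicle in each pair, with exact 95% binomial intervals and cell numbers above. The precursor bars, 0.101% and 0.922%, have intervals that do not overlap, and the mature bars, 0.370% and 0.461%, have intervals that do.

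Few cells sat near the Cd79 and class II thresholds, but several HDAC3i cells sat near the Vpreb threshold. Cd79a and Cd79b together gave 3 UMIs, 1 short of the rule, in 1 HDAC3i and 3 Vehicle cells, and exactly 4 UMIs in 1 HDAC3i and 0 Vehicle cells. The T cell condition removed 2 HDAC3i and 0 Vehicle barcodes, and 1 of these had 25 Cd79a, 22 Ms4a1, 42 Ighm and 49 H2-Aa UMIs beside 2 Cd3g UMIs. The cell filter removed 0 HDAC3i and 5 Vehicle barcodes that met the gene rule, 4 of them over 15% mitochondrial UMIs. In Vehicle precursors Vpreb1 and Vpreb3 together gave 7 UMIs or more, and class II gave 4 or fewer. Of the HDAC3i precursors 1 sat on the threshold, with 2 Vpreb3 and 0 class II UMIs, while the others had 39 and 77 Vpreb UMIs. Among all HDAC3i B lineage cells the Vpreb sum was 1 UMI in 1 cell, 2 in 2, 3 in 1 and 4 in 1. With the Vpreb threshold at 5 UMIs HDAC3i had 2 precursor and 14 mature cells, and Vehicle 20 and 11. The mixed HDAC3i cells were then called mature, so that class depends on the threshold. Class II in mature cells was far from its threshold, at 15 to 84 UMIs in HDAC3i and 42 to 60 in Vehicle.

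Transcripts of other cell types sat in 4 of the B lineage cells, which were set apart after their values were seen, by more than 20000 UMIs or at least 5 Siglech UMIs. In HDAC3i a mature cell of 35351 UMIs held 816 UMIs of 6 oligodendrocyte markers and was called a doublet by Scrublet, and a mature cell of 11437 UMIs held 80 UMIs of 9 plasmacytoid dendritic cell markers, 8 of them Siglech. In Vehicle a mature cell of 45591 UMIs held 6659 UMIs of 8 erythroid and 509 of 6 endothelial markers, and the unassigned cell of 76725 UMIs held 766 endothelial marker UMIs and no class II or light chain UMI. These 4 cells gave 44.2% of HDAC3i and 47.7% of Vehicle B lineage UMIs. Without them the shares of kept cells were 0.505% (15 of 2973) in HDAC3i and 1.43% (31 of 2168) in Vehicle, a ratio of 0.353 (0.177 to 0.674). The precursor share of B lineage cells was then 20% (4.33 to 48.1) in HDAC3i and 64.5% (45.4 to 80.8) in Vehicle. Their ratio was 0.310 (0.0590 to 1.05), against 0.291 (0.0554 to 0.982) with them. The interval of this ratio is made for rare counts and is too wide for shares this large. Whether it held 1 is therefore not read as a result.

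In the remaining cells markers of other types were low, except in the single cells named below. A list of 12 microglia and macrophage markers summed to 1 to 12 UMIs per HDAC3i cell and 1 to 19 per Vehicle cell, with Cx3cr1 and Adgre1 at 0 in both. Of 11 T and NK markers 10 were at 0 in both libraries, 4 of them by the rule, and the other was Cd2. Neutrophil markers, 9 in all, summed to 0 to 4 UMIs per HDAC3i cell and 0 to 6 per Vehicle cell. Endothelial markers summed to 2 HDAC3i and 9 Vehicle UMIs over all these cells. Erythroid markers reached 218 UMIs in 1 HDAC3i precursor and 322 UMIs in 1 Vehicle precursor, and oligodendrocyte markers reached 73 UMIs in 1 HDAC3i mature cell. No list of Schwann cell markers was used, and a Vehicle mature cell of 7356 UMIs held 82 UMIs of the Schwann cell gene Pmp22. That cell was not set apart, and these single cells stay in the values below. Their part in the results was not tested. Levels from here on are CPM (UMIs summed over cells and scaled to a common total), without the 4 set-apart cells unless they are named.

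Surrogate light chain RNA divided the precursors further. At least 2 UMIs of Vpreb1, Vpreb2 and Igll1 together were present in 2 of 3 HDAC3i and 4 of 20 Vehicle precursors. Vpreb1, which forms the variable part of that chain, had 32, 6 and 0 UMIs in the HDAC3i precursors, against 34, 32, 18 and 15 UMIs in the 4 Vehicle cells and 0 in each of the other 16. Igll1, its constant part, had 10, 1 and 0 UMIs in the HDAC3i precursors, against 6, 10, 11 and 1 UMIs in the same 4 Vehicle cells. No mature or mixed cell of either library had a Vpreb1, Vpreb2 or Igll1 UMI. With precursors set by at least 2 UMIs of Vpreb1 and Igll1 in place of Vpreb1 and Vpreb3, they were 2 of 17 (11.8%) HDAC3i and 4 of 33 (12.1%) Vehicle B lineage cells, and 2 of 2975 HDAC3i and 4 of 2170 Vehicle kept cells. Vpreb1 and Vpreb2 transcripts matched at 97.5% of 686 aligned bases, so reads may be split between them.

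Ighm, the heavy chain of IgM, had 3 and 6 UMIs in the HDAC3i cells of this kind and 9, 2, 6 and 2 UMIs in the Vehicle ones. Light chain RNA was absent in 1 of the 2 HDAC3i cells (0 and 14 Igkc UMIs) and in 3 of the 4 Vehicle cells (35, 0, 0 and 0 Igkc UMIs). Cd74, the invariant chain that accompanies class II, was at 0 in all 6. Dntt had 11 and 0 UMIs in the HDAC3i cells and 0, 5, 4 and 0 in the Vehicle cells. Myb, a progenitor transcription factor, had 2, 4, 8 and 0 UMIs in the Vehicle cells, and Lef1, another, 1 and 4 UMIs in the HDAC3i and 4, 3, 5 and 0 UMIs in the Vehicle cells. The HDAC3i cell of 12554 UMIs also held 73 UMIs of 16 S phase genes, 9 of them Pcna, the sliding clamp of DNA replication, and the largest sum in the Vehicle cells was 10.

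The other precursors carried Vpreb3, whose product stays in the endoplasmic reticulum with the receptor chains, and no Vpreb1 or Igll1. Vehicle had 16 such cells, with 7 to 31 Vpreb3 UMIs (median 12.5), and HDAC3i had 1, the cell with 2 Vpreb3 UMIs. Ighm was at 8 to 22 UMIs (median 14) in the 16 Vehicle cells, and at 6 UMIs in the HDAC3i cell. Of these Vehicle cells 2, at 8 and 9 UMIs, lay within the 2 to 9 UMIs of the Vehicle surrogate light chain cells, and the others lay above it. Igkc, the kappa constant gene, was seen in 13 of the 16 Vehicle cells (median 18, highest 67 UMIs) and the lambda genes in 8 (highest 79), while the HDAC3i cell had 53 lambda and 0 kappa UMIs. Rag1 was still present in 10 of the 16 Vehicle cells at up to 4 UMIs, and Il7r in 12 at up to 7 UMIs. Dntt and Lef1 were at 0 in all 16, the S phase sum was at most 1 UMI in each and the G2/M sum was 0.

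Signs of maturing were uneven in these 16 Vehicle cells, whose low class II was set by the state rule. Ms4a1 was seen in 4, at 6, 1, 7 and 1 UMIs, and Ighd, the IgD heavy chain, in 5. Cd74 was seen in 11 of them, at 34 UMIs in the cell that also had 6 Ms4a1 and 67 Igkc UMIs, and at 11 or fewer in the others. Cd83 and Bank1, genes of mature B cells, were at 0 in all 16. Other genes of the mature list were present: over all 20 Vehicle precursors Klf2 had 26, Tnfrsf13c 13 and Ccr7 12 UMIs. The heat map of stage genes sets cells with Vpreb1, cells with Vpreb3 alone and cells with class II side by side.

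**Figure D3:**
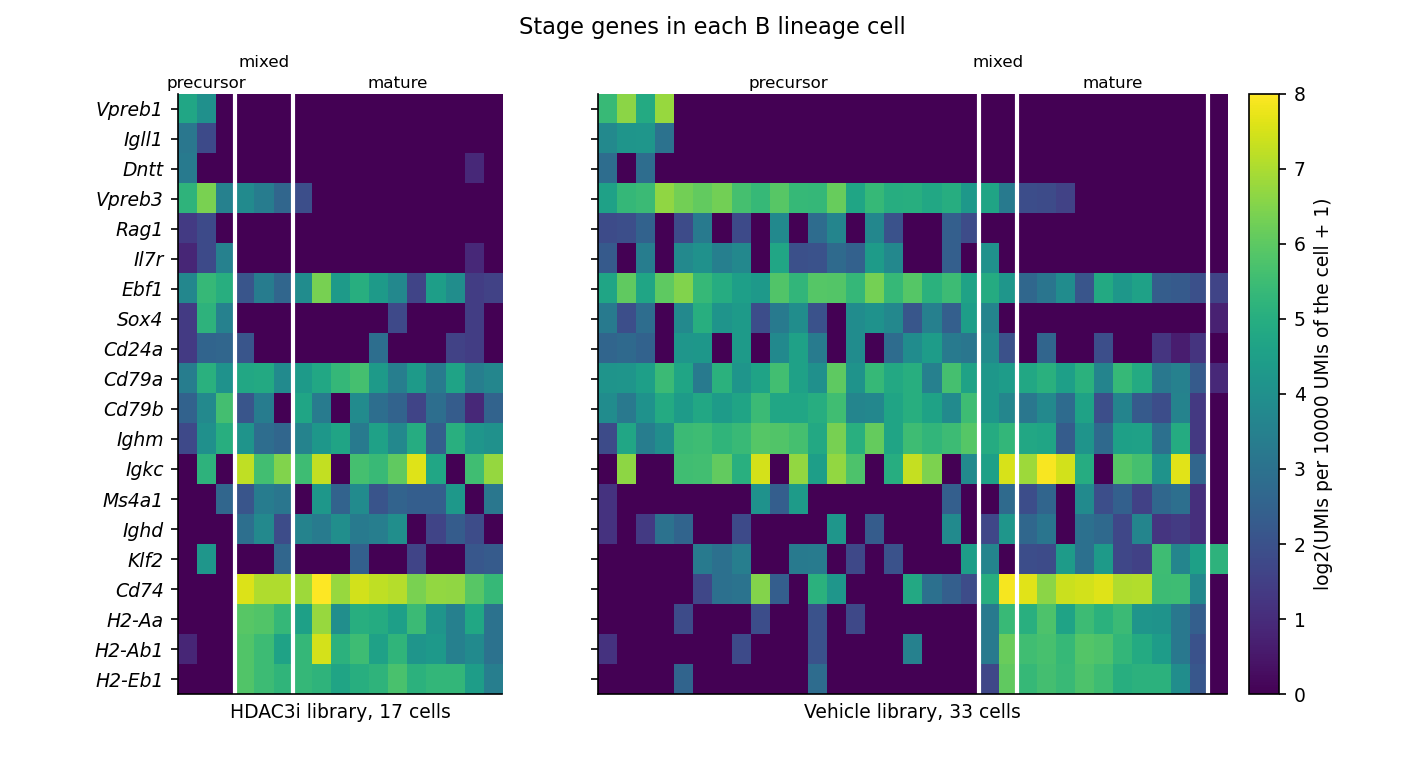
Each column is 1 B lineage cell (17 HDAC3i at left, 33 Vehicle at right, split by state with white lines; the last Vehicle column is the unassigned cell) and each row a stage gene; colour is the log2 level, from UMIs scaled to the same total in every cell, with 1 added. Vpreb1 and Igll1 are bright in 2 HDAC3i and 4 Vehicle columns, Vpreb3 in all Vehicle precursors, and Cd74 and class II in the mature columns.

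Many cells carried mostly 1 kind of light chain RNA. Kappa made at least 4 times the UMIs of lambda, with 5 or more kappa UMIs, in 1 of 3 HDAC3i and 12 of 20 Vehicle precursors, and lambda did so against kappa in 1 HDAC3i and 3 Vehicle precursors. Mature cells were kappa in 5 of 11 HDAC3i and 7 of 10 Vehicle cells, and lambda in 2 HDAC3i and 1 Vehicle cells. The mature set-apart cells are included in these counts, and the unassigned one is not. No mature cell of either library lacked light chain RNA, against 1 HDAC3i and 3 Vehicle precursors. In C1q-rich cells Igkc was seen in 0.299% of HDAC3i and 0.803% of Vehicle cells. The lambda genes Iglc2 and Iglc3 matched at 95.3% of 450 aligned bases and were summed with Iglc1.

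**Figure D4:**
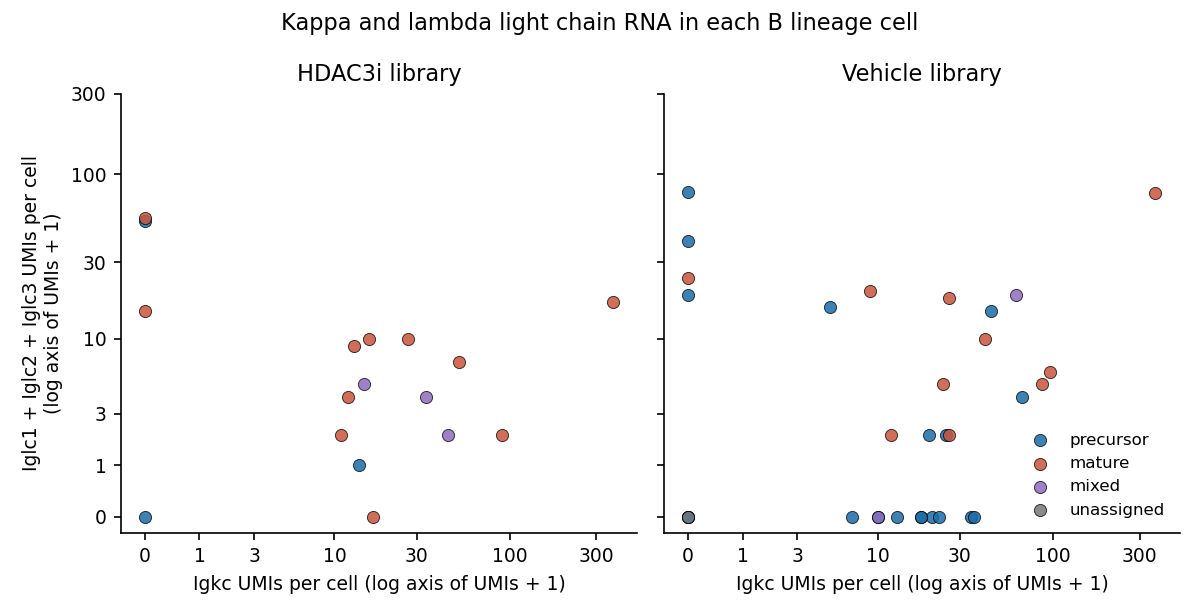
Each point is 1 B lineage cell, with Igkc UMIs on the x axis and Iglc1, Iglc2 and Iglc3 UMIs summed on the y axis (log axes of UMIs + 1), HDAC3i left and Vehicle right, coloured by state. Points on the axes carry 1 kind of light chain; 12 Vehicle precursors are kappa and 3 are lambda.

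Precursors were compared with mature cells within each library, which is a description of the 2 states and has no replicates. Of the 20 pro-B and pre-B genes on the list 13 had 20 UMIs or more over all cells; 8 gave a ratio in HDAC3i and 12 in Vehicle. Precursor levels were past 1.5-fold higher in 7 of 8 in HDAC3i and 12 of 12 in Vehicle, with 0 past it lower in either and medians of 1.96 and 2.64 on the log2 scale. Of 393 genes measured in both states of both libraries, 33.1% in HDAC3i and 26.5% in Vehicle were past that fold higher in precursors. The medians over them were 0.08 and 0.09. Measured genes needed at least 50 UMIs and 200 CPM, against 20 UMIs for genes of a list. Genes with few UMIs pass the fold more readily by counting error. Here and for every list below, the list count and the share of measured genes are therefore not like for like. With the set-apart cells 30.3% in HDAC3i and 31% in Vehicle of 617 genes were past it higher, and 24% and 17.7% lower. A gene at 0 in 1 state entered these counts at a floor of 3 UMIs for that state. A ratio at the floor leaves out the counting error of the other state and is not an interval limit. The HDAC3i precursor sums rest on 3 cells, and 68.1% of their UMIs came from the cell of 12554 UMIs.

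Sox4, a transcription factor that early B progenitors need in mouse, had 18 precursor and 1 mature UMIs in HDAC3i, a ratio of 29.8 (4.70 to 1241). In Vehicle Sox4 had 80 precursor and 0 mature UMIs, a ratio of 20.4 at the floor. It was seen in all 3 HDAC3i precursors, at 2, 14 and 2 UMIs, and in 15 of the 16 Vehicle precursors without surrogate light chain, at up to 14. Il7r had 4 precursor and 0 mature UMIs in HDAC3i, a ratio of 2.21 at the floor. In Vehicle Il7r had 50 precursor and 0 mature UMIs, a ratio of 12.7 at the floor. Its share of positive B lineage cells, 23.5% in HDAC3i and 45.5% in Vehicle, can be set beside 31.0% and 24.8% of the deeper C1q-rich cells. Rag1 had 3 precursor UMIs in HDAC3i and 25 in Vehicle, with 0 in the mature cells of both.

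Ebf1, the transcription factor that commits cells to the B lineage, gave unlike ratios in the libraries, and the difference between them was not tested. Its precursor and mature levels were 2007 and 1770 CPM in HDAC3i, a ratio of 1.13 (0.726 to 1.75), and 4161 and 971 CPM in Vehicle, a ratio of 4.29 (3.19 to 5.86). The precursors had 15, 16 and 6 Ebf1 UMIs in HDAC3i, and 7 to 35 UMIs (median 13) in the 16 Vehicle cells without surrogate light chain. Cd24a, a surface protein high on immature B cells, had ratios of 2.76 (0.537 to 17.8) in HDAC3i and 10.6 (4.31 to 33.5) in Vehicle. Mzb1, a chaperone of immunoglobulin, had ratios of 7.33 (3.17 to 19.7) in HDAC3i and 5.04 (2.73 to 10.2) in Vehicle.

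Among B cell transcription factors, 2 of 10 in HDAC3i and 10 of 15 in Vehicle were past the fold higher in precursors, beside 33.1% and 26.5% of all measured genes. Lower were 6 of 10 in HDAC3i and 3 of 15 in Vehicle, beside 23.7% and 17.3%. Bach2, a repressor that holds back plasma cell fate, had 3 precursor and 2 mature UMIs in HDAC3i, too few for a fold, and 47 and 4 in Vehicle, a ratio of 8.99 (3.29 to 34.3). Tcf3, which encodes E2A, had 1 and 3 UMIs in HDAC3i and 25 and 4 in Vehicle, a ratio of 4.78 (1.65 to 18.9). Pax5, the B cell identity factor, had 5 and 0 UMIs in HDAC3i and 19 and 7 in Vehicle, a ratio of 2.08 (0.836 to 5.84). The HDAC3i counts of these factors were at most 5 UMIs in precursors, too few to set their precursor over mature ratios against those of Vehicle. Between the precursors of the libraries, HDAC3i over Vehicle was 0.247 (0.0492 to 0.768) for Bach2 and 0.155 (0.00377 to 0.946) for Tcf3. For Pax5 it was 1.02 (0.297 to 2.82). The stages of these precursors also differed between the libraries.

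Genes of mature cells ran the other way in both libraries. Of 16 mature B genes, 11 in HDAC3i and 12 in Vehicle gave a ratio, with 8 and 11 past the fold lower in precursors and medians of -1.27 and -1.88 on the log2 scale, beside 23.7% and 17.3% of all measured genes. The gene past it higher was Klf2 in HDAC3i and Tnfrsf13c in Vehicle. Ms4a1 had 1 precursor and 22 mature UMIs in HDAC3i, a ratio of 0.0752 (0.00182 to 0.465), and 16 and 27 in Vehicle, a ratio of 0.453 (0.228 to 0.872). Ltb, lymphotoxin beta, had 1 precursor and 19 mature UMIs in HDAC3i and 4 and 18 in Vehicle. Cd83 was at 0 in the precursors of both libraries against 16 HDAC3i and 17 Vehicle mature UMIs. Ighd had 0 precursor and 22 mature UMIs in HDAC3i, and 13 and 20 in Vehicle, a ratio of 0.497 (0.227 to 1.05).

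Of the homing and retention receptors, 4 of 4 genes in HDAC3i and 5 of 7 in Vehicle were past the fold lower in precursors. The share of all measured genes, which passed a stricter filter on UMIs, was 23.7% and 17.3%. Ccr7, which leads B cells into lymphoid tissue, had 0 precursor and 12 mature UMIs in HDAC3i and 12 and 21 in Vehicle. Cxcr4, the receptor that holds precursors in bone marrow, had 2 precursor and 5 mature UMIs in HDAC3i and 21 and 9 in Vehicle, ratios of 0.662 (0.0630 to 4.04) and 1.78 (0.784 to 4.43), and both intervals held 1. Of the interferon response genes, 0 of 3 in HDAC3i and 7 of 9 in Vehicle were past the fold higher in precursors, beside 33.1% and 26.5% of all measured genes, and 1 and 0 past it lower, beside 23.7% and 17.3%. The 3 HDAC3i genes are too few to set against Vehicle. Ifi27l2a, an interferon-induced gene, had 3 precursor and 24 mature UMIs in HDAC3i and 107 and 80 in Vehicle.

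Class II genes were used for the split in part, and H2-Aa, H2-Ab1 and H2-Eb1 are a description only. Cd74, which was not used, had 0 precursor and 385 mature UMIs in HDAC3i, a ratio of 0.0129 at the floor. In Vehicle Cd74 had 67 and 558 UMIs, a ratio of 0.0918 (0.0702 to 0.118). It was seen in 41.3% of HDAC3i C1q-rich cells too, at 370 CPM, against 12622 CPM in HDAC3i mature B cells. Ighm had ratios on opposite sides of 1 in the libraries, a difference that was not tested. Ighm had 814 precursor and 1869 mature CPM in HDAC3i, a ratio of 0.436 (0.229 to 0.780), and 3559 and 1997 CPM in Vehicle, a ratio of 1.78 (1.42 to 2.25). Ly6d, a surface marker of B lineage commitment, had ratios of 0.764 (0.450 to 1.26) in HDAC3i, where the interval held 1, and 2.66 (1.98 to 3.63) in Vehicle. With all B lineage cells weighted alike its HDAC3i log2 ratio was 0.50, on the same side as Vehicle.

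**Figure D5:**
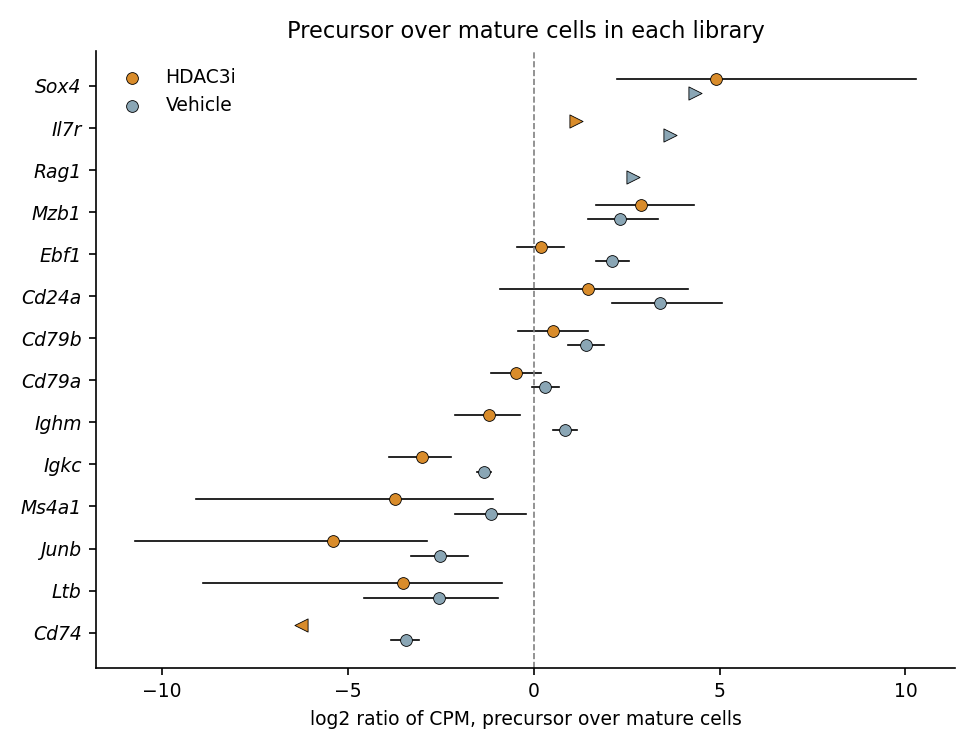
Points give the log2 ratio of precursor over mature CPM for named genes, HDAC3i above Vehicle in each row, with exact 95% intervals as lines. Triangles are ratios at the floor, drawn without an interval, where 1 state had 0 UMIs (Sox4 in Vehicle, 20.4-fold). Sox4, Il7r and Mzb1 lie right of 0 and Igkc, Ms4a1, Junb, Ltb and Cd74 left of it in both libraries, while Ighm lies on opposite sides.

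Across all measured genes, 66 of 393 (16.8%) were past the fold higher in precursors in both libraries and 34 (8.65%) lower in both; with the 4 set-apart cells these were 99 of 617 (16%) and 61 (9.89%). The 10 highest in both were Sox4, Atp1b1, Sec63, Pafah1b3, Chchd10, Tifa, Tspan13, Dnajc7, Mzb1 and H2afy. Sec63, a part of the protein import machinery of the endoplasmic reticulum, had 6 precursor and 1 mature UMIs in HDAC3i and 60 and 4 in Vehicle. Dnajc7, a co-chaperone, had 13 and 2 UMIs in HDAC3i and 181 and 19 in Vehicle. Tifa, an adaptor in NF-kappaB signalling, had 14 and 0 UMIs in HDAC3i and 49 and 0 in Vehicle. These genes had few mature UMIs in either library.

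The 10 lowest in both were Cd74, Junb, Stk17b, Dennd4a, Iglc2, Cd52, Ier2, Nr4a1, Dad1 and Igkc. Junb, an immediate-early transcription factor, had 1 precursor and 70 mature UMIs in HDAC3i, a ratio of 0.0236 (0.000590 to 0.136), and 19 and 83 in Vehicle, a ratio of 0.175 (0.100 to 0.291). Nr4a1, induced by receptor signalling, had 0 and 14 UMIs in HDAC3i and 4 and 36 in Vehicle. Of the immediate-early and stress list, 7 of 7 genes in HDAC3i and 8 of 12 in Vehicle were past the fold lower in precursors, beside 23.7% and 17.3% of all measured genes, and 0 were past it higher. With the set-apart cells the lowest 10 were instead S100a6, Mal, Junb, Cd74, Capg, Cryab, Shisa5, Sept4, Mt1 and Slc3a2, and the highest 10 gained Il7r and C1galt1 for Tspan13 and H2afy.

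HDAC3i over Vehicle was then compared over all B lineage cells, where the different mix of states enters every value. With the 4 set-apart cells 159 of 752 genes (21.1%) were past the fold higher and 220 (29.3%) lower in HDAC3i, 50.4% in all. Without them 41 of 441 (9.3%) were higher and 89 (20.2%) lower, 29.5% in all. With them the highest genes included Ptgds, Aplp1, Cldn11, Mag, S100a4, Trf, Ckb, Cryab and Mobp, several of them oligodendrocyte genes, and the lowest included Ly6c1, Pltp, Flt1, Igfbp7, Cldn5, Ifitm3, Egfl7, Cxcl12 and Itm2a. Ptgds had all of its 1028 HDAC3i UMIs in the cell of 35351 UMIs, and Cldn5, an endothelial junction gene, had 64.3% of its 596 Vehicle UMIs in 1 cell.

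Without those cells the class II genes were 8 of 8 above 1. Past the fold higher were 7 of them, beside 9.3% of 441 measured genes. The class II median was 0.78 on the log2 scale against -0.03 over all measured genes. The pro-B and pre-B genes were past the fold lower in 9 of 12 and higher in 1, with a median of -1.13. Of all measured genes 20.2% were past it lower and 9.3% higher. H2-Aa was at 2238 CPM in HDAC3i and 1098 CPM in Vehicle. Il7r was at 67.8 CPM in HDAC3i and 426 CPM in Vehicle, and Ebf1 at 1645 CPM in HDAC3i and 2757 CPM in Vehicle. In these sums fewer precursors and a different level per cell cannot be told apart. The lowest included Mt1, Fos, Pmp22, Cd9, S100a6, Dnajc7, Il7r, Fam53b and Sec63, of which Pmp22, a myelin gene of Schwann cells, had all of its 82 Vehicle UMIs in 1 mature cell. The highest 10 were Mif, Mbp, Rel, Anp32b, Ncl, Ran, Serbp1, Satb1, Snrpb and Sec62. Mif had 68.8% of its 32 HDAC3i UMIs in 1 cell and Mbp 69.3% of its 88.

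Within precursors the 2 libraries had like levels of Vpreb3, 4341 CPM in HDAC3i and 4301 CPM in Vehicle, a ratio of 1.01 (0.779 to 1.29), which the state rule used. Ighm was at 814 CPM in HDAC3i and 3559 CPM in Vehicle precursors, a ratio of 0.229 (0.126 to 0.384), and Ebf1 at 2007 and 4161 CPM, a ratio of 0.482 (0.333 to 0.680). Of 238 measured genes 22.7% were past the fold higher and 23.9% lower in HDAC3i precursors. Cells with surrogate light chain gave 2 of the 3 HDAC3i precursors and 4 of the 20 Vehicle precursors, so that stage and library moved together.

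Mature cells numbered 9 in each library without the set-apart cells. Of 8 class II genes, 3 of which the state rule used, 0 were past the fold in either direction, and their median was 0.24 on the log2 scale, against 0.13 over all measured genes. Cd74 was at 12622 CPM in HDAC3i and 10221 CPM in Vehicle, a ratio of 1.23 (1.08 to 1.41), and H2-Aa at 2655 CPM in HDAC3i and 2290 CPM in Vehicle, a ratio of 1.16 (0.866 to 1.55). Cd79a, which chose the members, had 64 HDAC3i and 106 Vehicle UMIs, a ratio of 1.08 (0.780 to 1.49). Ighm had a ratio of 0.936 (0.667 to 1.30) and Ms4a1 one of 1.46 (0.792 to 2.66). Of 185 measured genes 8.11% were past the fold higher and 12.4% lower in HDAC3i mature cells; with the set-apart cells 37.1% of 391 genes were past it.

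The genes that differed most within mature cells included Klf2, a transcription factor of resting lymphocytes that keeps trafficking genes on. Klf2 had 0, 0, 0, 1, 0, 0, 1, 0 and 0 UMIs in the 9 HDAC3i mature cells, against 1, 1, 10, 2, 7, 1, 1, 33 and 21 UMIs in the 9 Vehicle mature cells. The 2 HDAC3i cells with a UMI touched the lowest Vehicle cells. The ratio of summed levels was 0.0465 (0.00553 to 0.174), and most Vehicle UMIs were in the cells of 33 and 21 UMIs. Past the fold lower were 12.4% of 185 measured genes in the same cells. Klf2 was picked after its values were seen, and other genes that part the cells as far were not counted. Cells of 1 library are not replicates of a treatment. The Vehicle cell of 33 Klf2 UMIs is the one with these Pmp22 UMIs, and the HDAC3i set-apart cells had 4 and 14 Klf2 UMIs. Jund, a partner of Junb in AP-1, had 0 to 16 UMIs in the 9 HDAC3i and 2 to 36 UMIs in the 9 Vehicle mature cells, groups that overlap, and a ratio of 0.470 (0.325 to 0.667). Rel, an NF-kappaB subunit active in B cells, had 40 HDAC3i and 22 Vehicle UMIs, a ratio of 3.25 (1.89 to 5.75), and Ebf1 had 54 and 53, a ratio of 1.82 (1.22 to 2.72). The HDAC3i mature cells ran from 1113 to 4956 UMIs and the Vehicle ones from 2997 to 18222, and the part of that depth in these ratios was not tested.

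Among light chains Igkc had 186 HDAC3i and 662 Vehicle UMIs in mature cells, a ratio of 0.503 (0.425 to 0.593), with 364 of the Vehicle UMIs in the cell of 18222 UMIs. The same Vehicle cell held 92.2% of S100a6 and 91.9% of Crip1, which were among the 10 lowest genes within mature cells. Genes of later B cell fates were counted with the set-apart cells. Of 10 plasma cell genes 6 were at 0 in HDAC3i and 4 in Vehicle, and the list summed to 68 and 164 UMIs. Much of these sums was Mzb1, which was higher in precursors. It had 31 precursor and 15 mature UMIs in HDAC3i, and 79 and 14 in Vehicle. Jchain and Prdm1, which mark antibody-secreting cells, were at 0 UMIs in both libraries. There 3 UMIs correspond to 28.4 CPM in HDAC3i and 11.7 CPM in Vehicle. Germinal centre genes, 7 in all, summed to 1 HDAC3i and 12 Vehicle UMIs, 9 of the latter in 1 cell. Without the set-apart cells they summed to 0 and 3 UMIs. The 10 B-1 and marginal zone genes summed to 155 and 309 UMIs, with up to 92 and 62 in 1 cell, and to 41 and 222 without the set-apart cells. Hdac3 itself had 2 UMIs in 17 HDAC3i cells and 4 UMIs in 33 Vehicle cells, 18.9 and 15.6 CPM, too few to compare.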

How the data were processed

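Whole-number UMI counts per gene and barcode were deposited for both libraries; per the file headers they are filtered matrices of Cell Ranger 3.0.2. The submitters' processing notes name mm10, Cell Ranger and Seurat; the sources used here do not give how reads matching several genes were counted. The HDAC3i library held 3423 and the Vehicle library 2523 barcodes. Kept cells, B lineage cells and states followed the thresholds given above. UMIs were summed per library and state with python 3.11.15 and scipy 1.17.1; shares have Clopper-Pearson intervals, CPM exact Poisson intervals, and ratios conditional binomial intervals. Measured genes had at least 50 UMIs and 200 CPM in the higher group, and past the fold means 1.5-fold. Genes of a list needed only 20 UMIs, so list counts and shares of measured genes stand at unlike thresholds. Scrublet in scanpy 1.11.5 called 21 HDAC3i and 6 Vehicle doublets, few enough that doublets may remain. The scripts were tested on simulated counts. Gene positions are GENCODE M21. Named genes were the markers, up to 6 abundant genes of each list, the 10 highest and 10 lowest ratios, and Hdac3; other genes, such as Klf2 within mature cells, and the 4 set-apart cells were chosen after their values were seen. Members and lists were chosen with earlier results of these data known. Some genes that the rule names are not reported here. Alternatives changed the cell filter, thresholds, scaling, weighting and depth.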

Additional observations from a re-analysis of the deposited data

Results flagged for a closer look

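In 2 genes the precursor over mature ratio, taken with all B lineage cells, lay on opposite sides of 1 in the libraries, and the difference was not tested. For Ighm the log2 ratio was -1.07 in HDAC3i and 1.62 in Vehicle. For Ly6d it was -1.03 in HDAC3i and 2.22 in Vehicle, and 113 of the 205 Ly6d UMIs of HDAC3i mature cells were in the cell with 8 Siglech UMIs. With each cell weighted alike the HDAC3i log2 ratio of Ly6d was 0.50, on the same side as Vehicle.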

How the results depend on the processing

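The ratio of B lineage shares, HDAC3i over Vehicle, stayed between 0.306 and 0.456 over its 8 alternatives. The precursor and mature shares of B lineage cells stayed within their counting intervals, except that the Vehicle precursor share was 12.1% with Vpreb1 and Igll1 in place of Vpreb1 and Vpreb3. Counts of genes past the fold depended on depth and on a few cells. Over all B lineage cells 379 genes became 61 when every cell was thinned to 2000 UMIs, 213 without each gene's top cell, 130 without the 4 set-apart cells (an alternative chosen after seeing the data, as throughout) and 3742 with no filter on UMIs. Within mature cells 145 became 26, 73 and 38 under the first 3 of these. Precursor over mature, higher in both libraries, 99 became 15 when thinned and 32 without the top cell; lower in both, 61 became 38 with each cell weighted alike, 17 thinned, 22 without the top cell, 37 without Scrublet doublets and 34 without the set-apart cells. Thinning leaves fewer genes to pass the filter; for the rest the cause was not tested.

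Of the log2 ratios of named genes under these alternatives 488 stayed close, 186 moved and 35 turned sign. HDAC3i over Vehicle turned over all cells for Cd79a (-0.20 each cell alike, -0.078 thinned, -0.18 without the set-apart cells, -0.27 states alike), Igkc (-0.069, -0.12, -0.69 and -0.43 in the same order), Ighd (-0.42, states alike), Ly6d (-0.21 thinned, -0.53 without the set-apart cells), Ckb (-0.42 without the top cell, -0.94 without doublets, -0.82 without the set-apart cells), Cryab (-1.20 without doublets, -1.82 without the set-apart cells) and Junb (0.98 each cell alike, 0.97 thinned, 0.34 without the top cell, 0.997 without the set-apart cells). Within mature cells it turned for Cd74 (-0.077 thinned), Ighm (-0.10 without the set-apart cells), Igkc (-0.43 each cell alike, -0.64 thinned, -0.27 without doublets, -0.99 without the set-apart cells), Ckb (-1.33 without doublets), Cnp (-1.66 without the top cell, -2.33 without doublets, -2.48 without the set-apart cells) and Qdpr (-0.94 without the top cell, -0.74 without doublets, -1.48 without the set-apart cells). Precursor over mature turned for Ly6d in HDAC3i (0.50, each cell alike) and for Igkc in Vehicle (0.055, without the top cell). No paired analysis was possible because each group had 1 library.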
